A study of Mus musculus with 2 samples.

Results

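The genes described here are cyclins, cyclin-dependent kinases (CDKs), CDK inhibitors and regulators of mitosis. They had listed candidate positions of N6-methyladenosine (m6A), modified or not, in mouse retinal organoids. Members were chosen by gene name alone: numbered cyclins of the families A to L, numbered CDK genes, Cdc20, and genes with a listed name beginning. These beginnings were Cdkn, Cenp, Aurk, Plk1 to Plk4, Bub1, Bub3, Mad2l, Anapc and Cdc25. By this rule 84 genes were listed in at least 1 of 2 libraries, of 8262 named genes in all. A site was a listed position with 20 or more reads in replicate 2, and the value of replicate 1 was taken at the same transcript and position where it was listed. There were 205 such sites in 53 of the genes, of 16212 sites in 3919 genes in all, and 75 of them, in 30 genes, also had 20 or more reads in replicate 1. The name rule also takes in genes named for binding or resembling one of these proteins, such as Aurkaip1 and Cdkn2aipnl, and these are given apart.

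Progress through the cell cycle is driven by CDKs, which are active only when bound to a cyclin. D-type cyclins with Cdk4 or Cdk6 act in G1, E-type cyclins with Cdk2 at the start of S phase, and A- and B-type cyclins with Cdk2 or Cdk1 from S phase into mitosis. Exit from mitosis depends on the anaphase-promoting complex (APC/C), a ubiquitin ligase that the spindle checkpoint holds back until chromosomes are attached through their kinetochores. In the embryonic retina the dividing progenitors of the optic cup depend mainly on cyclin D1. The m6A mark is placed on mRNA by a complex with METTL3, in a sequence context called DRACH.

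The only sequence given for a site is its motif of 5 bases. All listed positions lie on the 4 motifs below, printed in DNA letters with the A at base 3, the one that m6A would occupy, in capitals.
Motif with the last base adenine: ggAca
Motif with the last base cytosine: ggAcc
Motif with the last base thymine: ggAct
Motif with the first base adenine: agAct
A longer stretch can be read in 1 place, where neighbouring motifs of Cdkn2aipnl overlap. The listed positions 439 and 443 are 4 nt apart, as the overlap of GGACA with AGACT requires, and together they give 9 bases that hold both candidate adenosines.
Cdkn2aipnl: ggAcagAct

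Both libraries came from wild-type organoids of the mouse Rx:GFP line, a stem cell line with a green fluorescent reporter of the eye-field gene Rx (Rax), grown for 6 days with AGN at 0.1 µM. AGN is named in the labels without further description. Native poly(A) RNA, 1 µg per library, was read strand by strand through nanopores with RNA002 chemistry for about 48 h. The libraries form 1 group with n = 2 and the labels do not say whether they came from separate cultures, so no contrast between conditions exists and the spread between them may be technical. With 2 libraries an exact paired permutation test cannot give a p-value under 0.5, and none was run. Of 10 eye-field and retinal progenitor markers all 10 were listed in each library, and none of 7 pluripotency markers was listed in either.

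The value at a site is the fraction modified, from 0 to 1, as the authors deposited it, and its coverage is the number of reads over the position. The fractions were not plain shares of the covering reads, since only 13.7% of the fractions at the 205 sites are whole multiples of 1 over the coverage (within the rounding of the deposited decimals). A fraction given over a number of reads is thus printed with its coverage, which is not its denominator. No interval was therefore set around a single fraction, and the difference between replicates is given as its error. Replicate 2 was the deeper library, with a median of 1.94-fold the coverage of replicate 1 at the 75 shared sites (medians of 85 and 41 reads). Among listed positions of these genes in replicate 2, 205 of 489 (41.9%) had 20 or more reads, against 32.4% of all listed positions. Median coverage at the 205 sites was 43 reads (interquartile range 30 to 79), against 36 at all sites.

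**Figure D1:**
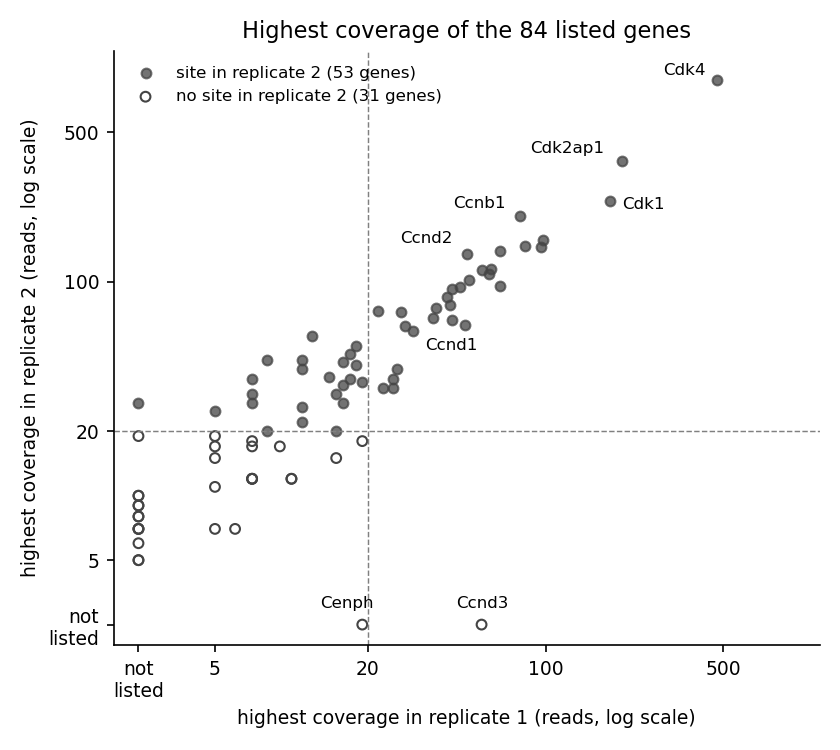
Highest coverage of each of the 84 listed genes at any of its positions, replicate 1 on the x axis and replicate 2 on the y axis, in reads on log scales. Filled points are the 53 genes with a site in replicate 2 and open points the 31 without, genes not listed in a library stand at the edge, dashed lines mark 20 reads, and Cdk4 stands highest with 474 and 880 reads.

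The D-type cyclins Ccnd1 and Ccnd2, the regulatory subunits of Cdk4 and Cdk6, had fractions from 0.0930 to 0.865 and from 0.0526 to 0.566 at their sites in replicate 2. Ccnd1 (chromosome 7, 144483668 to 144493662, gene coordinates here and below as deposited, in a build that the tables do not name) had 4 sites on transcript ENSMUST00000093962.4, 3 of them shared. The highest was a GGACC at position 3493, with a fraction of 0.950 in replicate 1 (30 reads) and 0.865 in replicate 2 (54 reads). The median over all GGACC sites of replicate 2 was 0.231, so this site lay far above what its motif usually showed. The GGACT at position 2597 had 0 over 26 reads and 0.0952 over 53, and the AGACT at position 2921 had 0.292 over 30 reads and 0.0930 over 59. Both libraries thus placed 3493 above 2597 and 2921 by more than they differed at any of the 3 sites. The GGACA at position 1058 reached 29 reads in replicate 2, with a fraction of 0.5, and in replicate 1 it had 0.300 over 12 reads. Averaged over the 3 shared sites, the fraction of Ccnd1 was 0.382 ± 0.0445 (SD, n = 2).

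Replicate 1 listed 3 further Ccnd1 positions with 20 or more reads for which the replicate 2 table used here has no row. A GGACA at position 2772 had a fraction of 1 over 29 reads, a GGACT at position 2696 had 0.6 over 27 reads, and an AGACT at position 3552 had 0.115 over 30 reads. These values rest on 1 library. The average of Ccnd1 above therefore leaves out the position with the highest replicate 1 value.

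Ccnd2 (chromosome 6, 127102125 to 127129156) had 7 sites on transcript ENSMUST00000000188.11, 5 of them shared, with an average over the shared sites of 0.276 ± 0.0527 (SD, n = 2). The GGACA at position 6307 was the deepest and had 0.6 in replicate 1 (49 reads) and 0.566 in replicate 2 (135 reads). Another GGACA, at position 4803, had 0.222 over 22 reads and 0.100 over 79, so the same motif gave values 0.378 and 0.466 apart on this transcript in replicates 1 and 2. The GGACA at position 4843 had 0.6 over 22 reads and 0.366 over 79, and its replicates differed by 0.234, 1 of the 3 shared sites of the whole set that differed by more than 0.2. The GGACT at position 5233 had 0.143 and 0.108, and the AGACT at position 5373 had 0 and 0.0526. Sites in replicate 2 alone were a GGACC at position 5140 with 0.533 over 93 reads and a GGACA at position 1827 with 0.5 over 20 reads. In replicate 1 alone, a GGACT at position 4910 had 0.235 over 22 reads and has no row in replicate 2.

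The shared sites of Ccnd2 began at position 4803 and those of Ccnd1 at position 2597. Coverage was higher towards the end of both transcripts, going from 20 reads at the first site of Ccnd2 to 135 at the last, which is 6.75-fold, and from 29 to 54 in Ccnd1. In replicate 2, 3 listed positions of Ccnd2 before these sites stayed under the minimum, with 15 to 18 reads. Of the 11 sites of both D-type cyclins in replicate 2, 2 lay above the median of all sites of their motif, against 49.5% of all sites. These were the GGACC sites Ccnd1 3493 and Ccnd2 5140. The positions listed in replicate 1 alone did not enter this count. Among them, Ccnd1 2772 and 2696 lay above the replicate 1 median of their motif over all shared sites (0.688 and 0.267). Ccnd1 3552 and Ccnd2 4910 lay below theirs (0.267 each). Ccnd3 was listed in replicate 1 only, where its GGACT at position 142 of ENSMUST00000182209.7 had 0.0455 over 56 reads.

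**Figure D2:**
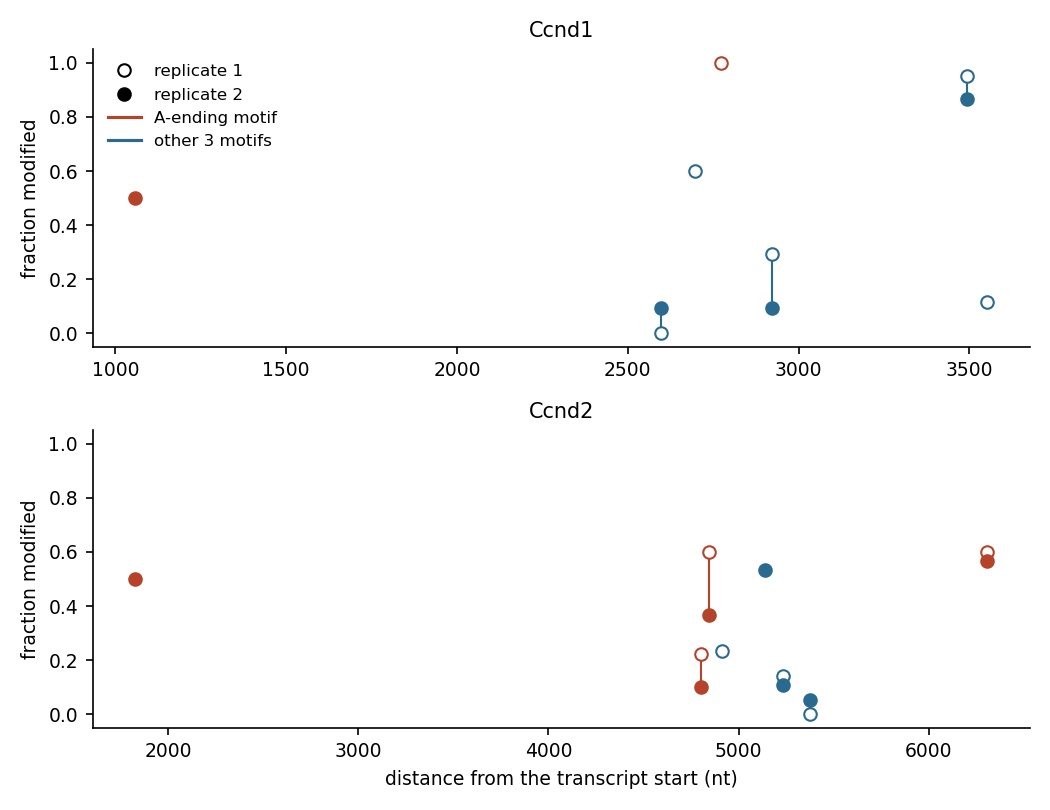
Fraction modified at the positions of Ccnd1 and Ccnd2 with 20 or more reads, against distance from the transcript start in nt, with open points for replicate 1, filled points for replicate 2 and a line joining the libraries at a shared site. Ccnd1 3493 stands at 0.950 and 0.865, and positions with an open point alone, such as Ccnd1 2772 at 1, have no row in the replicate 2 table used here.

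The E-type cyclins, which activate Cdk2 at entry into S phase, reached 20 reads in replicate 2 alone. Ccne1 had 6 sites with 45 to 50 reads, among them a GGACA at position 1349 with a fraction of 0.979 and a GGACC at position 269 with 0, the latter also listed at 0 over 13 reads in replicate 1. Its GGACA at position 203 had 0.433 over 45 reads and 0.4 over 12 in replicate 1. Ccne2 had 2 sites, with 0 at position 169 over 24 reads and 0.0870 at position 1727 over 27 reads, where replicate 1 had 0.167 and 0 over 7 reads each.

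Ccna2 (chromosome 3, 36619014 to 36626299), the cyclin of S phase and G2, had 6 sites, 5 of them shared, with an average of 0.340 ± 0.00208 (SD, n = 2). The SD, here and for the other averaged genes, is over the 2 library averages, in which site differences of opposite sign cancel. Single shared sites of Ccna2 differed between libraries by 0.0281 to 0.0609. Its GGACA at position 1405 had 0.810 in replicate 1 (66 reads) and 0.772 in replicate 2 (139 reads). The GGACT at position 2867 was intermediate, with 0.514 over 49 reads and 0.459 over 100. The other shared sites were low: 0.148 and 0.209 at the GGACT of position 2464, 0.167 and 0.139 at the GGACC of position 1476, and 0.0682 and 0.115 at the GGACC of position 481. These 3 lay below both higher sites in each library without overlap. In replicate 2 alone, an AGACT at position 629 had 0.366 over 123 reads.

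The B-type cyclins, partners of Cdk1 in mitosis, differed in their single shared site. Ccnb1 was the deepest cyclin, and its GGACA at position 1244 of ENSMUST00000072119.14 had 0.158 over 77 reads and 0.182 over 202. The median over all GGACA sites of replicate 2 was 0.667, so this site was low for its motif. Ccnb2 had a GGACT at position 1313 with 0.561 over 66 reads and 0.508 over 96, above the GGACT median of 0.230.

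Ccng1 (chromosome 11, 40639379 to 40646138), an atypical cyclin known as a p53 target, had 6 sites on 1 transcript, all of them shared. The GGACA at position 3446 had 0.911 over 60 reads and 0.947 over 108, and the GGACA at position 3244 had 0.514 over 58 reads and 0.614 over 109. A GGACC at position 2099 had 0.5 and 0.587. Of its 3 GGACT sites, position 467 had 0.120 and 0.0667, position 1750 had 0.146 and 0.0714, and position 1653 had 0.136 over 43 reads and 0.367 over 79, a difference of 0.231 between replicates. Ccng2, a cyclin linked to arrest, had 2 sites in replicate 2 with 22 reads each, with a fraction of 1 at the GGACA of position 1965 and 0 at the GGACT of position 1459. Replicate 1 also gave 1 at position 1965, over 11 reads.

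Among the CDKs of the cell cycle itself, Cdk4 and Cdk1 had shared sites and Cdk2 had none. Cdk4 (chromosome 10, 126899403 to 126903789), the partner of the D-type cyclins, had the deepest site of all members, a GGACA at position 547 with 0.856 in replicate 1 (474 reads) and 0.877 in replicate 2 (880 reads). Its mean was 0.867 ± 0.0148 (SD, n = 2). Cdk1 (chromosome 10, 69170976 to 69188768), the mitotic kinase, had 3 shared sites. The GGACA at position 1002 had 0.682 over 179 reads and 0.619 over 239. The GGACT sites at positions 405 and 1135 had 0.110 and 0.0894, and 0.0844 and 0.0714, and position 1135 had the lowest mean of the 2 libraries among the 23 member sites with 50 or more reads in both. A GGACA of Cdk1 at position 97 had 0.883 over 132 reads in replicate 1 and has no row in replicate 2. Cdk2 reached 33 to 35 reads in replicate 2 alone, with 0.931 and 0.308 at the GGACA sites of positions 1130 and 1473 and 0.125 at the GGACC of position 434. Replicate 1 gave 0.8, 0.429 and 0.167 there, over 6 or 7 reads.

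Cdk7 (chromosome 13, 100839139 to 100867447), the kinase of the CDK-activating complex and of the transcription factor TFIIH, had 5 sites, 4 of them shared. The GGACA sites at positions 196 and 1162 had 0.952 and 0.912, and 0.758 and 0.737. The GGACT at position 151, 45 nt before the first of these, had 0.235 and 0.209, and the GGACC at position 954 had 0 over 40 reads and 0.0405 over 76. The average over the 4 sites was 0.480 ± 0.00829 (SD, n = 2). A GGACA of Cdk7 at position 242 had 0.658 over 65 reads in replicate 2 alone, and a GGACA at position 167 had 0.92 over 30 reads in replicate 1 alone. Cdk8, a kinase of the Mediator complex, had 9 sites in replicate 2 with 23 to 33 reads, from 0 at the GGACC of position 225 to 0.963 at the GGACA of position 1164. Cdk9, which releases paused RNA polymerase II, had 7 sites with 36 to 39 reads, among them GGACA sites at 1562 with a fraction of 1 and at 1324 with 0.115. Replicate 1 gave 0.909 and 0.286 at these, over 11 reads each. Its deepest site, a GGACC at position 1599, had 0.485 over 39 reads and 0.2 over 11 in replicate 1. Cdk16 had 2 GGACC sites, with 0.130 at position 2240 and 0.207 at position 3002.

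CDK inhibitors and the CDC25 phosphatases, which oppose and promote CDK activity, had no shared site. Cdkn1b (p27), a brake on proliferation in retinal progenitors, had 1 site in replicate 2, an AGACT at position 2250 with 0.917 over 25 reads. Over all AGACT sites of replicate 2 the median was 0.263 and the highest fraction 0.944. Cdkn2d (p19) had 3 GGACA sites with 25 to 27 reads, at 0.5, 0.824 and 0.842 for positions 671, 827 and 1054. In replicate 1 they had 0.429, 1 and 1 over 15 or 16 reads, so position 671 was the lowest in both libraries. Cdc25a, which removes inhibitory phosphates from CDKs, had 6 sites with 22 to 30 reads in replicate 2 and no row in replicate 1 at any of them. They ran from 0.211 at the GGACC of position 2080 to 0.875 at the GGACA of position 2677, and the AGACT at position 2417, with 30 reads, had 0.333.

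The Aurora and Polo kinases, which build the spindle and drive mitotic entry, had 17 sites in 4 genes. Of these sites 5 lay above the median of all sites of their motif in replicate 2, against 49.5% of all sites. The median deviation from the motif median was -0.085 over the 17 sites. At the 6 shared sites, set against all shared sites, it was instead above 0, with 0.071 in replicate 1 and 0.054 in replicate 2. Plk1 (chromosome 7, 121758662 to 121769096) had 3 shared sites with an average of 0.523 ± 0.0339 (SD, n = 2). Its GGACT at position 1933 had 0.838 in replicate 1 (61 reads) and 0.787 in replicate 2 (115 reads), while its GGACT at position 2156 had 0.146 over 59 reads and 0.148 over 113. These sites of the same motif on the same transcript lie 223 nt apart and differed by 0.665 ± 0.0378 (SD, n = 2), far more than either differed between replicates. The GGACA of Plk1 at position 1451 lay between them, with 0.659 and 0.563. In replicate 1 alone, Plk1 had 3 further positions (632, 1352 and 1715) with 45 to 59 reads and fractions of 0.188, 0.0625 and 0.0727.

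Aurka, the kinase of spindle poles, had a GGACC at position 1321 with 0.8 over 25 reads and 0.826 over 32, and another GGACC at position 1115 with 0.250 and 0.222. Aurkb, the kinase of the chromosomal passenger complex, had 4 sites from 0.115 to 0.364 in replicate 2, and its shared GGACT at position 854 had 0.375 and 0.364. Plk4, which controls centriole duplication, had 7 sites with 20 to 30 reads in replicate 2. Within 38 nt its fractions were 0.167 at the GGACT of position 1645, 0.294 at the GGACA of position 1663 and 0.917 at the GGACT of position 1683, with 0.444, 0.125 and 0.857 over 10 reads each in replicate 1. Position 1683 was the highest of the 3 in both libraries, while the order of the other 2 changed. At the GGACA of position 3326 the Plk4 fractions were 0.714 over 15 reads and 0.222 over 30.

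The spindle checkpoint genes had 13 sites in 4 genes, 10 of them shared. Bub3 (chromosome 7, 131161951 to 131173624), which brings Bub1 and BubR1 to kinetochores, had 3 shared sites, all GGACA. Position 228 had 0.987 in replicate 1 (80 reads) and 0.991 in replicate 2 (126 reads), the highest of the 23 deep sites in each library. Position 677 had 0.820 over 88 reads and 0.750 over 138. Position 1296 had 0.114 over 96 reads and 0.0826 over 145, although its motif is the one with the highest median. The outer sites differed by 0.891 ± 0.0250 (SD, n = 2), the widest gap between shared sites of 1 motif on 1 member transcript. A GGACC at position 605 had 0.198 over 137 reads in replicate 2 alone. A GGACT of Bub3 at position 631 had 0 over 88 reads in replicate 1 and has no row in replicate 2.

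Mad2l1 (chromosome 6, 66512374 to 66524204), which inhibits Cdc20 while the checkpoint is on, had 4 shared sites, none above 0.291 in either library. On ENSMUST00000116605.7 it had 0.161 and 0.291 at the GGACT of position 288, 0.143 and 0.169 at the GGACC of position 651, and 0.108 and 0.0769 at the GGACC of position 831. A GGACC at position 1228 of ENSMUST00000101343.1 had 0.0667 and 0.111, over 20 reads in each library. Its average of 0.141 ± 0.0298 (SD, n = 2) was the lowest of the 12 genes with 3 or more shared sites, and no shared site was a GGACA. In replicate 1 alone, a GGACA at position 1111 of ENSMUST00000101343.1 had 0.462 over 20 reads, and it has no row in replicate 2. Bub1b (BubR1) had GGACA sites at positions 1836 and 2037 with 0.947 and 0.878, and 0.417 and 0.581. Bub1 had a GGACC at position 3313 with 0.556 over 27 reads and 0.552 over 72.

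Of the APC/C genes with its coactivator Cdc20, 9 had a site, 42 sites in all, of which 9 were shared. Anapc2, the cullin subunit, had the most with 12 sites on 1 transcript. Their fractions ran from 0 over 40 reads at the GGACT of position 490 to 0.972 over 39 reads at the GGACA of position 135, both read from replicate 2, and 2 GGACA sites were shared. These had 0.0526 over 20 reads and 0.120 over 68 at position 2258, and 0.286 over 22 reads and 0.353 over 73 at position 2609, each under the GGACA median of 0.667. Anapc11, the RING subunit, had sites on 2 transcripts. Position 350 of ENSMUST00000026128.9 had 0.407 over 83 reads and 0.495 over 145, and position 505 of ENSMUST00000093140.4 had 0.409 over 32 reads and 0.242 over 83. Whether these are the same genomic site was not analysed here.

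Anapc5 had 2 shared GGACT sites, with 0.130 and 0.250 at position 180 and 0.0909 and 0.130 at position 2419. A GGACA of Anapc5 at position 2121 was listed at 1 in replicate 1, over 43 reads, and has no row in replicate 2. Anapc10, a subunit that helps bind substrates, had a GGACA at position 707 of ENSMUST00000210812.1 with 0.905 and 0.885, and Anapc13 had a GGACA at position 84 with 0.850 and 0.862. Cdc20, which targets the complex to its mitotic substrates, had a single site, a GGACC at position 395 with 0.188 over 41 reads and 0.111 over 85. In replicate 2 alone, Anapc1 had 9 sites from 0 to 0.611, and the 4 sites of Anapc4 did not exceed 0.140. Its GGACT at position 2670 had 0.0233 over 56 reads, and 0 over 12 in replicate 1.

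Centromere and kinetochore genes gave 38 sites in 11 genes, of which 12 were shared. Cenpb (chromosome 2, 131017102 to 131021987), which binds the CENP-B box of centromeric repeats, had 7 shared sites, the most of any member, with an average of 0.554 ± 0.0678 (SD, n = 2). The AGACT at position 1616 had 0.786 over 27 reads and 0.833 over 41, and the GGACA sites at positions 1980 and 2001, 21 nt apart, had 0.688 and 0.722, and 0.769 and 0.774. The GGACT at position 1718 had 0.214 and 0.244, and the GGACA at position 1106 had 0.333 and 0.214. The GGACC at position 840 had 0.333 over 22 reads and 0.824 over 33, a difference of 0.490 and the widest of the 75 shared sites. The GGACC at position 809, 31 nt before it, had 0.417 and 0.6. These 2 sites stood in the opposite order in the 2 libraries. The GGACA at position 1037 fell short of 20 reads in replicate 1, where it had 0.0714 over 19, and had 0.348 over 35 in replicate 2.

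Cenpa (chromosome 5, 30824121 to 30832174), the histone H3 variant that marks centromeres, had 3 shared sites on 2 transcripts with an average of 0.359 ± 0.0207 (SD, n = 2). On ENSMUST00000133316.7 the GGACC at position 84 had 0.174 and 0.288, and the GGACT at position 858 had 0.546 and 0.397. On ENSMUST00000144742.5 the GGACT at position 841 had 0.4 over 50 reads and 0.347 over 98. Sites of Cenpa in replicate 2 alone were a GGACT at position 666 of the first transcript, with 0.0602 over 102 reads, and a GGACC at position 204 of the second, with 0.359 over 80. Cenpw, a histone-fold protein of the inner kinetochore, had a GGACA at position 253 with 0.530 in both libraries, over 98 and 156 reads. Cenpx, another histone-fold protein, had an AGACT at position 62 with 0.159 and 0.105.

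Among kinetochore genes with sites in replicate 2 alone, Cenpf, a large protein of the outer kinetochore, had 7 sites between positions 8338 and 9287. Its GGACA at position 8675 had a fraction of 1 over 39 reads and also 1 over 6 reads in replicate 1. Its GGACT at position 9195 and GGACA at position 9213, 18 nt apart, had 0.120 and 0.824 over 43 reads each. Cenpn, which recognises the Cenpa nucleosome, had 8 sites with 36 to 41 reads, from 0.0476 at the GGACT of position 255 to 0.952 at the GGACA of position 1283. Cenpm and Cenpq had GGACA sites with a fraction of 1, over 20 and 34 reads, and replicate 1 gave 1 over 15 reads and 0.929 over 19. The single site of Cenpe, a GGACA at position 7279, had 0.9 over 27 reads. Cenpc1, which binds Cenpa nucleosomes, had 3 sites over 24 to 26 reads, and that of Cenpv, an AGACT at position 485, had 0.560 over 42 reads.

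Among the genes named for binding or resembling another member, Cdkn2aipnl (chromosome 11, 51858488 to 51868161) carried the overlapping pair printed above. Its GGACA at position 439 had 0.936 over 33 reads and 0.938 over 85, and its AGACT at position 443 had 0.522 and 0.667 over the same numbers of reads. The difference within the pair was 0.271 in replicate 2 and wider in replicate 1. A second AGACT, at position 1740, had 0.0625 and 0.0645, a GGACT at position 1389 had 0.394 and 0.559, and a GGACC at position 923 had 0.125 and 0.0139. A GGACA at position 1462 had 0.328 over 92 reads in replicate 2 alone, and a GGACA at position 1594 had 0.759 over 43 reads in replicate 1 alone. Cdk2ap1, a CDK2-associated protein, was the second deepest member, and its GGACA at position 769 had 0.377 over 200 reads and 0.254 over 366. Aurkaip1, named for binding Aurora A, had GGACC sites at 406 with 0.114 and 0.0957 and at 588 with 0.361 and 0.350. Cdk5rap3 had a GGACA at position 1674 with 1 over 23 reads and 0.889 over 32. Mad2l2, a subunit of DNA polymerase zeta, and Mad2l1bp, which silences the checkpoint, reached 20 reads in replicate 2 alone, with 3 and 2 sites. The deepest, with 36 reads each, were an AGACT of Mad2l2 at position 952 and its GGACA at position 1198. Position 952 had 0.429, and 0.714 over 14 reads in replicate 1. Position 1198 had 0.667 and no row in replicate 1.

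**Figure D3:**
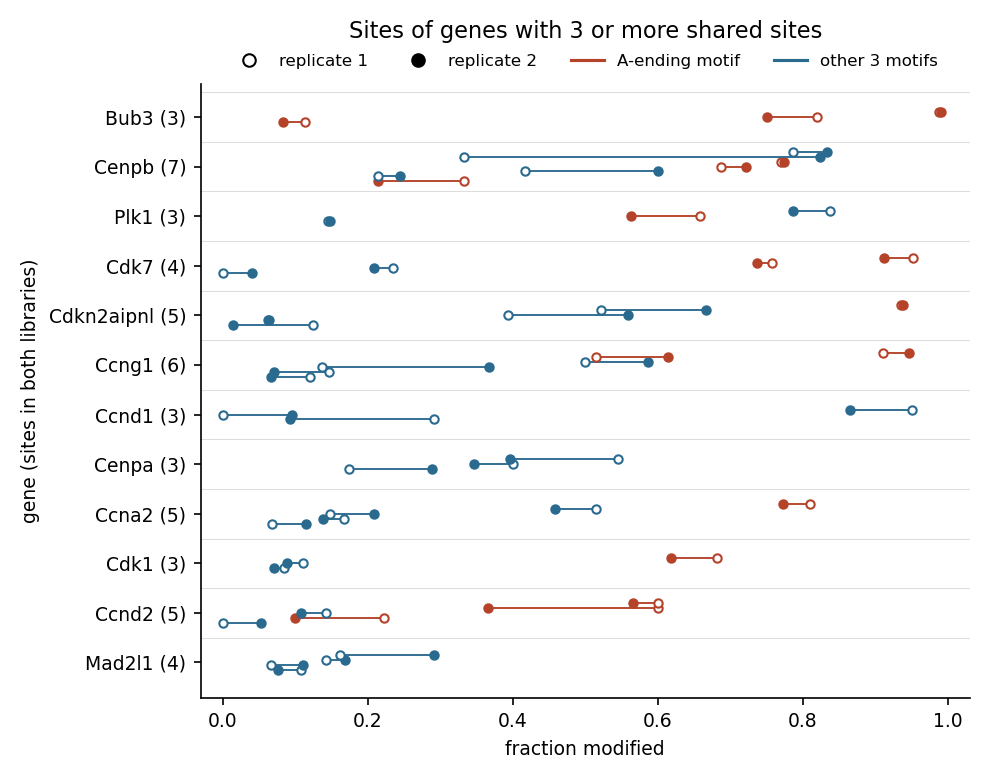
Fraction modified at every shared site of the 12 genes with 3 or more of them, with open points for replicate 1, filled points for replicate 2 and colour for the motif class. Genes are ordered by their average, from Mad2l1 at 0.141 to Bub3 at 0.624, and within Bub3 the sites run from 0.0826 to 0.991 in replicate 2.

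Over all members the fractions were close to those of the whole table. The median was 0.333 at the 205 sites of replicate 2 (interquartile range 0.139 to 0.667), against 0.345 at all sites. At the 75 shared sites it was 0.375 in replicate 1 and 0.353 in replicate 2, against 0.375 and 0.362 at all 5221 shared sites. A fraction of 0.5 or more was found at 77 of the 205 sites (37.6%), against 37.5% of all sites. It was 0.8 or more in both libraries at 11 of the 75 shared sites (14.7%), against 17.1% of all, and 0.1 or less in both at 5 (6.67%), against 10.1%. A fraction of 0 was listed at 8 of the 205 sites in replicate 2 (3.9%), against 3.23% of all, and a fraction of 1 at 6 (2.93%), against 3.22%. The sites at 1 were those of Ccng2, Cdk9, Anapc13, Cenpf, Cenpm and Cenpq, all GGACA. None of these shares was tested, since sites are not replicates.

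Levels differed by motif in these genes as in the whole table. GGACA made up 39.5% of the 205 sites, GGACT 25.4%, GGACC 21.5% and AGACT 13.7%, against 35.6%, 24.2%, 22.1% and 18.1% of all sites. The median of replicate 2 was 0.667 for GGACA, against 0.218 for AGACT, 0.205 for GGACT and 0.196 for GGACC. At the shared sites the GGACA median exceeded that of the other motifs by 0.503 in replicate 1 and 0.407 in replicate 2, against 0.438 and 0.427 at all shared sites. Of the 81 GGACA sites 32 (39.5%) had 0.8 or more in replicate 2, against 37.7% of all GGACA sites. Of the 124 sites on the other motifs 7 (5.65%) did, against 6.52%. These 7 were Ccnd1 3493, Aurka 1321, Plk4 1683, Cenpb 840 and 1616, Cdkn1b 2250 and the GGACT at position 456 of Aurkaip1, which had 0.883 over 111 reads. The value of Cenpb 840 in replicate 1 was 0.333, and Cdkn1b and Aurkaip1 had no row there at these positions.

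When the median of all sites of the same motif was taken from each fraction, 94 of the 205 sites (45.9%) lay above 0, against 49.5% of all sites, and 110 below, with a median of -0.03. By role the median deviation ran from -0.17 at the D-type cyclins (11 sites) to 0.17 at the CDK inhibitors (4 sites). At the shared sites of the D-type cyclins it was -0.11 in replicate 1 and -0.16 in replicate 2. At the centromere and kinetochore genes 24 of 38 sites lay above their motif median, and at the APC/C genes 20 of 42. The roles overlapped widely, and no difference between them was tested.

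**Figure D4:**
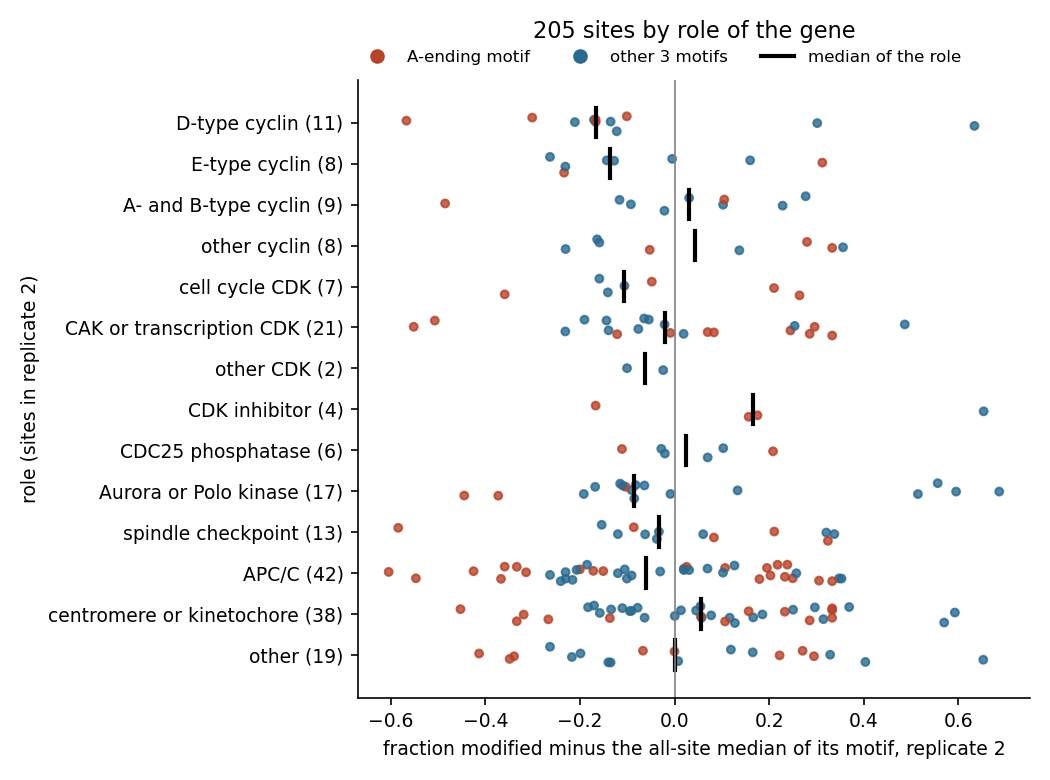
Fraction modified in replicate 2 minus the median of all sites of the same motif, for the 205 sites, 1 row per role with the number of sites, colour for the motif class and a black bar for the median of the role. Medians run from -0.17 at the D-type cyclins to 0.17 at the CDK inhibitors, and the points of all roles with 8 or more sites spread to both sides of 0.

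The libraries differed by a median of 0.0526 at the 75 shared sites, against 0.0517 at all shared sites. The fraction was higher in replicate 2 at 35 of them and lower at 40. Differences of more than 0.2 occurred at 3 (4%), against 5.94% of all shared sites: Cenpb 840, Ccnd2 4843 and Ccng1 1653, which had 22 to 43 reads in replicate 1. At the 23 sites with 50 or more reads in both, the median difference was 0.0361 and the widest 0.124, that of Cdk2ap1. Across the 75 sites Pearson's r was 0.942 and Spearman's rho 0.924, given as a description, since sites share libraries, transcripts and depth. By the mean of both libraries, the 5 highest of the 23 deep sites were Bub3 228, Ccng1 3446, Cdk4 547, Plk1 1933 and Ccna2 1405. The 5 lowest were Cdk1 1135, Ccna2 481, Bub3 1296, Cdk1 405 and Aurkaip1 406.

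**Figure D5:**
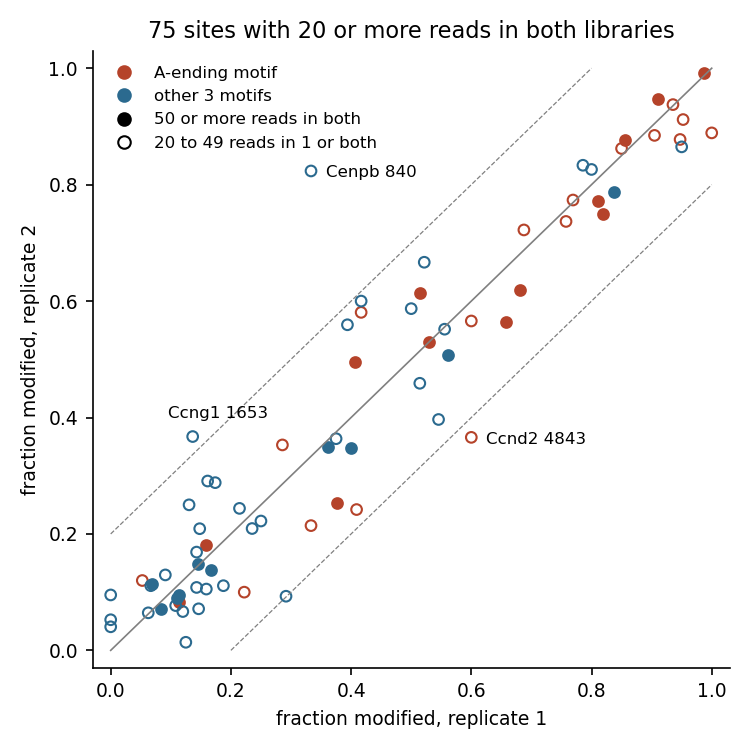
Fraction modified in replicate 2 against replicate 1 at the 75 shared sites, with colour for the motif class, filled points for the 23 sites with 50 or more reads in both, a solid line of equality and dashed lines at a difference of 0.2. The 3 named sites, with their transcript positions, lie outside the dashed lines, and none of the filled points does.

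Sites of the same motif on the same transcript could be compared free of the motif in 18 cases, on 15 member transcripts with 2 or more shared sites of a motif. The gap between the lowest and the highest site was over 0.2 in both libraries in 11 of the 18 (61.1%), against 55.7% of 1034 such cases in the whole table. The median gap was 0.279, against 0.296 in the whole table. It was widest in Bub3, Plk1 and Aurka, with 0.891, 0.665 and 0.577, followed by the AGACT sites of Cdkn2aipnl with 0.531. It was narrow between the GGACT sites of Cdk1, with 0.0258 and 0.018 in replicates 1 and 2, between the GGACC sites of Mad2l1, and between those of Ccna2. In the GGACC pair of Cenpb the order turned between libraries. Low and high were chosen from these same values, so the average gap is 0 or more by choice.

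Coverage was higher at the last site than at the first in 37 of 44 transcripts with 2 or more sites in replicate 2 (84.1%), against 76.6% of all such transcripts. It was equal in 5 and lower in 2, Ccna2 and Anapc1. The median ratio of last to first was 1.1, against 1.13 in the whole table, and Ccnd2 with 6.75 and Cenpb with 2.34 had the highest. Placement in coding sequence or untranslated regions was not analysed here.

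Members below the minimum are known by listing alone. Of the 31 genes without a site, 29 were listed in replicate 2 with 5 to 19 reads. They include the kinases Cdk5, Cdk11b, Cdk13 and Cdk17, the inhibitors Cdkn1a, Cdkn2c and Cdkn3, the phosphatases Cdc25b and Cdc25c, Plk2 and Plk3, Ccnl1 and Ccnl2, Anapc7 and Anapc15, and 8 kinetochore genes of which Cenps came closest with 19 reads. Ccnd3 and Cenph were listed in replicate 1 only. Low coverage cannot be told apart from low expression or from the choice of listed positions, so these genes say nothing on whether their RNA is modified.

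Other cell cycle genes that the name rule leaves out were taken from 3 lists of 69 genes in all, of which 66 were listed and 45 had 197 sites in replicate 2 with a median of 0.347. For 41 genes of mitosis, such as the cohesin, condensin and Ndc80 genes, the median was 0.257 over 139 sites in 32 genes. For 18 genes of G1 and S phase control, such as the E2F and retinoblastoma genes, it was 0.667 over 43 sites in 8 genes. For a list of 10 genes outside the name rule, made up of cyclins and a partner, it was 0.581 over 15 sites in 5 genes. At shared sites the medians were 0.308 and 0.359 for mitosis (57 sites) and 0.672 and 0.710 for G1 and S phase control (12 sites). The difference between lists was not tested and motif was not held equal. Most of the 12 shared sites of G1 and S phase control were GGACA, while most of the 57 for mitosis were on other motifs. Over all shared sites the GGACA median was 0.688 in replicate 1 and 0.667 in replicate 2. Examples at shared GGACA sites are Top2a 2182, Spc25 89 and Btg1 563, each with a fraction of 1 in both libraries over 25 to 97 reads, chosen after their values were seen.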

How the data were processed

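For each library 2 tables of listed positions were deposited by the authors, and the plus tables were used. As deposited by the authors, coverage is a count of reads in whole numbers and fraction modified a fraction from 0 to 1. No position under 5 reads is listed. The submitters' processing notes name mm10. The gene coordinates in the tables did not match it: 1 of 84 member genes had a start within 1000 bases of that in RefSeq GRCm38.p6. Base caller, aligner and modification caller are not given in the sources used here. Positions were matched on transcript and end position, used as the 1-based position. Medians, counts and SDs were computed with Python 3.11.15 and pandas 2.3.3, and the matching was tested on simulated data. No test was run, since the samples form 1 group of 2.

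The members, role groups and gene lists were chosen with earlier results of these data known. Described site by site are Ccnd1, Ccnd2 and genes with 3 or more shared sites. Named besides are the 5 highest and 5 lowest sites with 50 or more reads in both, and sites whose replicates differ by more than 0.2. For each role, the deepest site among genes with sites in replicate 2 alone is also named, or 1 of them where sites tied. Further sites of these genes were named after their values were seen. Alternatives were other coverage minimums, 1 transcript per gene, narrower membership, weighting by coverage and leaving out a replicate. The minus tables were not used and hold none of these genes. Transcript sequences were not used here.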

Additional observations from a re-analysis of the deposited data

Results flagged for a closer look

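The rule for sites rests on replicate 2, and 22 positions with 20 or more reads in replicate 1 fall outside it and entered no count of sites. They are 22.7% of the 97 such positions of these genes, against 19.2% over all genes. All 22 have no row in the replicate 2 table used here, although 21 of them lie on transcripts with a site there and replicate 2 was the deeper library. They fall in 15 genes, with 4 in Anapc5 and 3 each in Ccnd1 and Plk1. Their fractions run from 0 at Bub3 631 (88 reads) to 1 at Ccnd1 2772 (29 reads) and Anapc5 2121 (43 reads), with a median of 0.284. In the other direction 55 of the 205 sites of replicate 2 have no row in replicate 1 (26.8%), against 25.2% of all sites. How positions were chosen for each table is not given in the sources used here.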

How the results depend on the processing

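Of 29 alternative values 19 stayed within 1 SD of the replicates or within 1.5 times the count, and 10 moved. Without a coverage minimum there were 489 sites in replicate 2, 206 in both and 82 genes, the median at shared sites was 0.323 and the median difference between replicates 0.0833. With 50 reads there were 88 sites, 23 in both and 28 genes, the median at shared sites was 0.451 and the median difference 0.0361. Fewer or more positions enter by construction, and the cause of the shift in the shared median was not tested. The excess of GGACA over the other motifs was 0.504 without a minimum and 0.487 with 50 reads, against 0.455. With 1 replicate left out it ran from 0.407 to 0.503, and the shared median from 0.353 to 0.375. Keeping 1 transcript per gene moved none of the 7 values run beyond these limits. Leaving out the genes named for binding or resembling another member (Cenpb kept) was run for the counts of sites alone and gave 186 in replicate 2 and 66 in both. Weighting by coverage gave 0.389 for Ccnd1 and 0.296 for Ccnd2. Neither gene had a shared site of 50 reads, so that alternative gave no value. No paired analysis was possible because the samples form 1 group. Depth limits the single fraction, and Ccnd1 rests on 26 to 30 reads in replicate 1.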
